A study of Mus musculus with 10 samples.

Results

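The classic adipokines are hormones and plasma proteins that fat cells release, and 10 of their genes were followed in cultured adipocytes of control and adipocyte Fam20c-KO mice. The genes are Adipoq, Lep, Retn, Cfd, Rbp4, Rarres2, Nrg4, Metrnl, Itln1 and Sfrp5. They were chosen by name, as the rows of the count table whose symbol is one of these, and make up 10 of 56748 genes. The filter on low counts kept 8 of the 10 among 14270 genes tested, and removed Itln1 and Sfrp5.

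The cultures were stromal vascular cells of inguinal fat from male mice aged 6 to 8 weeks, turned into adipocytes over 6 to 8 days with IBMX, dexamethasone, insulin and rosiglitazone. Controls came from Fam20c-flox mice. The Ad-Fam20c-KO group, called KO here, came from Fam20c-flox mice that also carried Adiponectin-Cre, so that animals of both groups carried the floxed allele. There were 5 libraries per group, of 18949106 to 26237825 counts each. Cre was driven by the Adipoq promoter, which acts in adipocytes, so the other cells of such a culture keep Fam20c. In this mouse line Cre sits on a bacterial artificial chromosome with sequence from the Adipoq locus, and because only KO animals carried it, the transgene and the loss of Fam20c cannot be told apart. No source says that the libraries came from separate cultures or animals, so the p-values measure the spread between these libraries, which may be technical. Control 4 and KO 1 stood apart from the other libraries over all genes, and values without them are given for the adipokines that were highest in both.

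Adipokines carry information on energy stores from fat to brain, liver, muscle and immune cells. Adiponectin favours insulin action, leptin curbs appetite, and resistin and retinol binding protein are linked to insulin resistance. Most are made in the secretory pathway, where FAM20C, a kinase of the Golgi, phosphorylates secreted proteins. RNA-seq reads the transcripts of these proteins and not their phosphorylation or release.

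None of the 8 adipokine transcripts tested passed the test between KO and control cultures. A gene was called at a Benjamini-Hochberg adjusted p under 0.05 over all 14270 genes in the quasi-likelihood test of edgeR, which 309 genes or 2.17% passed, 44 of them higher and 265 lower in KO. DESeq2 also called 0 of the 8, against 3.39% of all genes. At an unadjusted p under 0.05, edgeR's test gave 1 of the 8, Cfd, against 11.9% of all genes (4.43% higher and 7.46% lower). In 0 of the 8 did the libraries of the groups separate without overlap, against 3.97% of all genes. The log2 fold change (KO against control) was above 0 for 7 and below 0 for 1, with a median of 0.07 against -0.00085 over all genes, of which 49.7% were above 0. The targeted gene itself fell. Fam20c measured 8.86, 10.3, 11.9, 9.09 and 11.2 CPM (counts-per-million of the TMM-scaled library size) in controls 1 to 5 and 6.65, 7.29, 7.11, 7.70 and 7.74 in KO 1 to 5. Every KO library lay under every control, and the log2 fold change was -0.49 (SE 0.0929, adjusted p = 0.0137).

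The promoters of Adipoq and Lep are shown because these best-known hormones stood at opposite ends of the levels tested. Each window runs from 250 bases before to 50 after the start of the gene, 5′ to 3′, from RefSeq on GRCm38.p6. The Adipoq window is chr16:23146286-23146585 on the plus strand, with capitals marking CCAAT or its reverse complement ATTGG. The Lep window is chr6:29059971-29060270, also on the plus strand, with capitals marking TTGCGCAA, the palindrome that C/EBP factors of the fat cell programme bind best.
Adipoq promoter: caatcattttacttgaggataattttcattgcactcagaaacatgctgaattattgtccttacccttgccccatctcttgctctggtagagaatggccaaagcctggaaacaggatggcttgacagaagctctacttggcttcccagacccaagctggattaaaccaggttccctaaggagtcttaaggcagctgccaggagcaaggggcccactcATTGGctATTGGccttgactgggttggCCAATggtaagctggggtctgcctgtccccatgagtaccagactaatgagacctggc
Lep promoter: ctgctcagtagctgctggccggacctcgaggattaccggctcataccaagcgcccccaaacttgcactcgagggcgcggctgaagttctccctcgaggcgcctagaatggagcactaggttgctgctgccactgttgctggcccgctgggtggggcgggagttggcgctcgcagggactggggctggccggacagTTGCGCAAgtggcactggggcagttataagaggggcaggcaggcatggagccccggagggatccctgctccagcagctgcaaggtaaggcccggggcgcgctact
Both strands were searched, and no motif matched overlapped another in these windows. CCAAT lay at position -7 from the Adipoq start and its reverse complement at positions -34 and -27, while 37.4% of 32851 promoters held it. The reverse complement was also matched at position -162 of an Rbp4 window and at position 37 in Sfrp5. TTGCGCAA lay at position -55 in Lep and in 60 promoters in all, or 0.183%. AGGTCA, the half-site of nuclear receptors such as PPARγ, was matched on the reverse strand at positions -90 and -26 of an Nrg4 window and is in 16.3% of promoters. TATAAA was matched at position -28 of the other Rbp4 window, against 13.6% of promoters. The table held 10 windows for 9 of the 10 genes, all but Rarres2. A match describes the letters only.

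Adipokine levels spanned a wide range. Levels were compared between genes as CPM per kilobase of exon, over the control libraries. The length took in the merged exons of all annotated transcripts of a gene, and the ranks depend on that choice. Adipoq stood highest at 1273 ± 58.8 CPM per kilobase (SD, n = 5) and ranked 16 among the 14096 genes tested that have an exon length. Rbp4 followed at 584 ± 96.1, Retn at 427 ± 37.3, Rarres2 at 228 ± 34.6 and Cfd at 211 ± 21.8, with ranks of 51, 70, 178 and 196. Rarres2 and Cfd were the neighbours in this order whose libraries overlapped, in both groups, and their order is not resolved. A wide gap came next. Metrnl stood at 11.3 ± 1.61 CPM per kilobase, Nrg4 at 2.39 ± 0.285 and Lep at 0.315 ± 0.143, with ranks of 3719, 8796 and 12901. Lep thus lay near the floor of what was tested. Sfrp5 was at 0.0828 ± 0.0496 and Itln1 at 0. The KO libraries gave the same order, with all neighbours apart except Rarres2 and Cfd, and Sfrp5 and Itln1, since 1 KO library held no Sfrp5 count. The 10 genes together took 0.381% to 0.436% of the counts of a control library and 0.408% to 0.451% of a KO library.

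**Figure D1:**
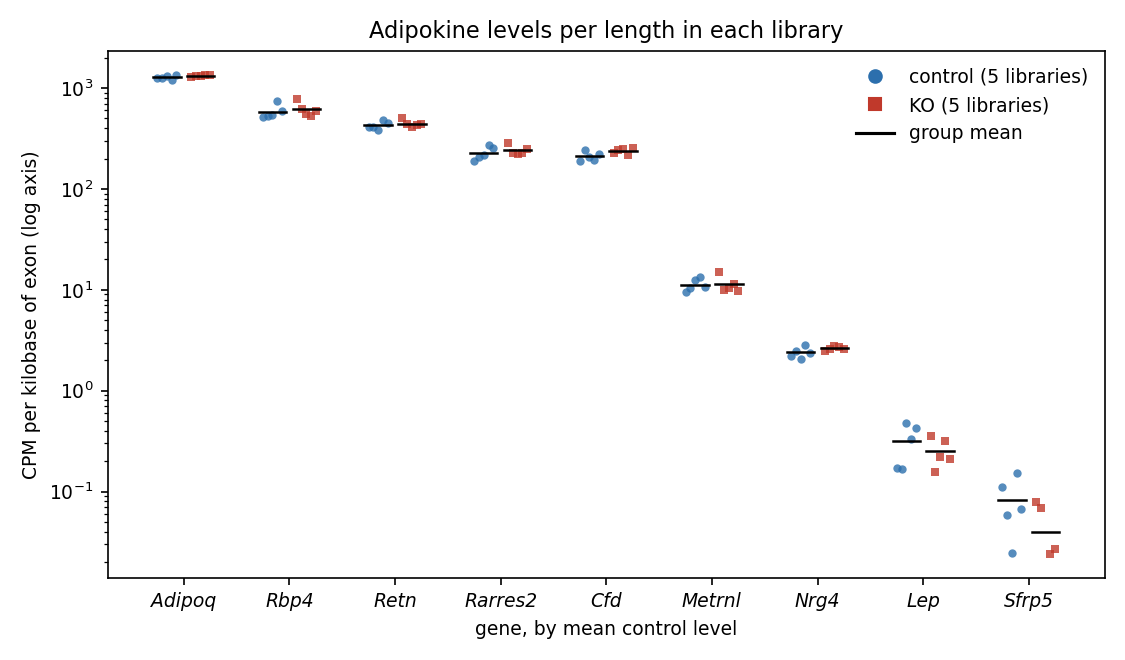
CPM per kilobase of exon (log axis) of 9 adipokines in each of the 5 control (circles) and 5 KO (squares) libraries, with bars at group means. Adipoq lies at 1192 or more in every library and Lep at 0.477 or less, Itln1 had no counts and is not drawn, and the KO library with 0 Sfrp5 counts has no point.

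Adipoq encodes adiponectin, the most abundant hormone of fat cells, at chr16:23146536-23158028 on the plus strand of GRCm38. It measured 1740.1, 1738, 1810.3, 1646 and 1859 CPM in controls 1 to 5 and 1771, 1799, 1806, 1873 and 1852 in KO 1 to 5. The groups overlapped, and 1 KO library lay above every control. Its log2 fold change was 0.05 (SE 0.0428, 95% interval -0.04 to 0.14), with an adjusted p of 0.743, so the interval of the fold runs from 0.971 to 1.10. Of the 8 genes it was the most even among libraries, with a coefficient of variation of 4.62% in controls and 2.28% in KO.

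Lep encodes leptin, the satiety hormone, at chr6:29060220-29073877 on the plus strand. It drew 11, 15, 34, 23 and 34 counts in controls 1 to 5 and 24, 12, 17, 23 and 14 in KO 1 to 5. The groups overlapped, and both lay within 11 to 34 counts. The mean was 1.06 ± 0.479 CPM in controls and 0.845 ± 0.270 in KO (SD, n = 5 each). Leptin transcripts had a log2 fold change of -0.32 (SE 0.327, 95% interval -1.03 to 0.38, adjusted p = 0.800 in edgeR's test). With 1 library left out it ran from -0.50 without control 2 to -0.13 without control 3. At these counts the 95% interval of the fold ran from 0.488 to 1.31, the widest of the 8.

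Retn encodes resistin, a cysteine-rich hormone that opposes insulin action in mice, at chr8:3655770-3660110 on the plus strand. Its levels were 649, 655, 605, 758 and 706 CPM in controls 1 to 5 and 802, 690.1, 647, 675 and 696 in KO 1 to 5. Control 4 and KO 1 were the highest of their groups, and the groups overlapped. KO and control differed by a log2 fold change of 0.06 (SE 0.0686, adjusted p = 0.844). Retn was at 0.0078 without KO 1, 0.024 without control 3, 0.11 without control 4 and 0.052 without both control 4 and KO 1.

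Rbp4, the carrier of retinol in plasma, lies at chr19:38116629-38125281 on the minus strand. It measured 691, 707, 724, 1004 and 796 CPM in controls 1 to 5 and 1040.1, 833, 744, 709.8 and 799 in KO 1 to 5. Control 4 and KO 1 again stood highest, and apart from them the groups covered much the same range. The log2 fold change was 0.07 (SE 0.116, adjusted p = 0.897), and it was -0.022 without KO 1, 0.18 without control 4 and 0.081 without both.

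Cfd encodes adipsin (complement factor D), the protease that starts the alternative complement pathway by cleaving factor B. The gene is at chr10:79890853-79892655 on the plus strand. It measured 174, 222, 193, 177 and 205 CPM in controls 1 to 5 and 208, 224, 229, 200.1 and 236 in KO 1 to 5. In KO, 3 libraries lay above every control, and 3 controls lay below every KO library. The log2 fold change of 0.18 (SE 0.0698, 95% interval 0.02 to 0.33) was the largest positive one of the 8, and its unadjusted p was 0.0267. It missed the limit after adjustment (adjusted p = 0.318, edgeR). A 2-sided exact permutation test over all 252 assignments of libraries gave p = 0.0556, where the smallest possible is 0.00794.

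Rarres2 encodes chemerin, a chemoattractant for macrophages and dendritic cells, at chr6:48569696-48572789 on the minus strand. It measured 503, 546, 578, 726 and 672 CPM in controls 1 to 5 and 758, 610.1, 585, 605 and 668 in KO 1 to 5. As with Rbp4 and Retn, control 4 and KO 1 were highest, and the groups overlapped (log2 fold change 0.09, SE 0.0997, adjusted p = 0.819). Rarres2 was at 0.031 without KO 1, 0.033 without control 1, 0.058 without control 2, 0.17 without control 4 and 0.10 without both control 4 and KO 1. Of its exon bases, 892 also lie in exons of Lrrc61 on the opposite strand, which measured 18.2 CPM. The counting is not stated to use strand, so reads there cannot be told apart.

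Nrg4 encodes neuregulin 4, a ligand of ErbB receptors that brown fat releases, at chr9:55220222-55326844 on the minus strand. Controls 1 to 5 measured 13.4, 15.1, 12.7, 17.2 and 14.4 CPM and KO 1 to 5 measured 15.0, 15.7, 16.9, 16.6 and 15.8. Control 4 was the highest of all 10, and 3 of the other controls lay below every KO library. The log2 fold change was 0.14 (SE 0.0795, adjusted p = 0.556), and 0.23 (adjusted p = 0.129) without control 4 and KO 1. Its exons share 368 bases with Fbxo22, at 51.0 CPM, and 177 with the pseudogene Gm15625, which had no counts, both on the opposite strand.

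Metrnl encodes meteorin-like, a factor tied to beige fat and immune cells, at chr11:121701544-121716306 on the plus strand. It measured 15.1, 16.5, 19.8, 21.3 and 16.8 CPM in controls 1 to 5 and 23.6, 15.9, 16.5, 18.3 and 15.6 in KO 1 to 5. The group means were 17.9 ± 2.56 and 18.0 ± 3.33 CPM (SD, n = 5 each), and KO 1 exceeded every control. The log2 fold change of 0.00 (SE 0.124, 95% interval -0.26 to 0.27, adjusted p = 0.998) kept its sign in 12 of 20 alternative settings.

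The remaining genes were hardly detected. Sfrp5, a secreted decoy for Wnt5a, at chr19:42197971-42202252, drew 4, 3, 1, 6 and 3 counts in controls 1 to 5 and 3, 3, 0, 1 and 1 in KO 1 to 5, or 17 against 8 in all. In a fit without a filter its log2 fold change was -0.99 (SE 0.661, adjusted p = 0.668). Itln1, which encodes omentin, a lectin known from human omental fat and the gut, at chr1:171518122-171535294, had 0 counts in all 10 libraries. A count of 0 allows 0.114 to 0.158 CPM in a library, taking 3 counts as the upper limit and covering counting error only.

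**Figure D2:**
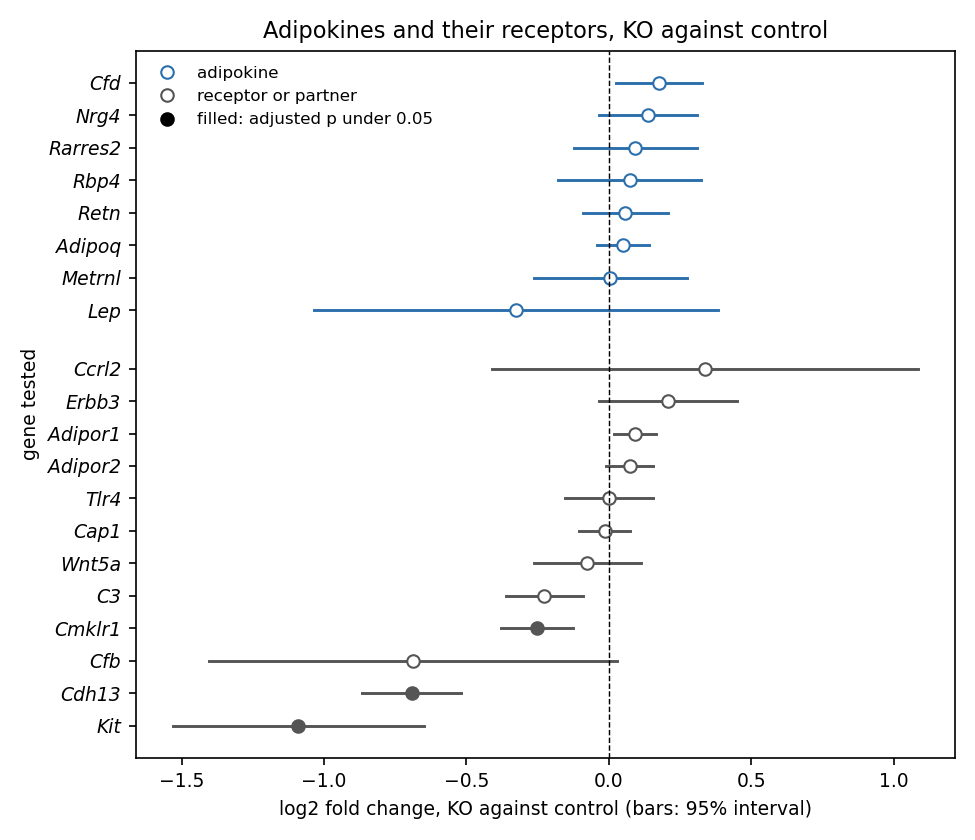
Log2 fold change of KO against control with its 95% interval for the 8 adipokines tested (blue) and 12 receptors or partners (grey), with filled points where the adjusted p is under 0.05. Among the adipokines only the interval of Cfd leaves out 0 and no point is filled, while Cdh13, Kit and Cmklr1 are filled and lie to the left.

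Variation within groups had a shared shape in some of the adipokines. Rbp4, Rarres2, Retn and Metrnl were each highest in control 4 among controls and in KO 1 among KO libraries, while Adipoq was lowest in those same libraries. On the log2 scale Rbp4 stood 0.37 above its group mean in control 4 and 0.35 above it in KO 1, and Adipoq stood at -0.09 and -0.04. Metrnl stood 0.26 and 0.41 above its group means there. Not all followed, since Nrg4 stood at 0.25 in control 4 but -0.09 in KO 1, and Cfd at -0.13 and -0.07. Lep, at few counts, stood at 0.18 and 0.50. Over all genes, control 4 and KO 1 lay at 21.7 and 24.2 on a first principal component that held 23.5% of the variance, where the other 8 libraries reached at most 8.59. Without both libraries, 0 of the 8 adipokines passed the limit, and Rbp4 and Retn had log2 fold changes of 0.08 and 0.05.

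**Figure D3:**
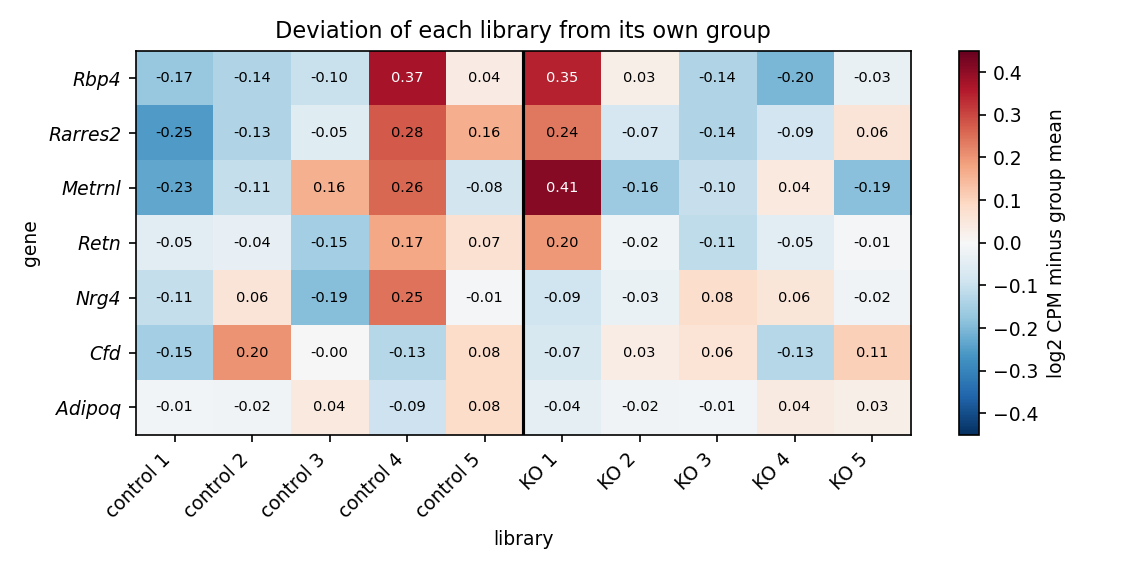
Each cell is a library's log2 CPM minus the mean of its own group, for 7 adipokines (rows) in 10 libraries (columns). Rbp4, Rarres2, Metrnl and Retn are red in control 4 and KO 1, where Adipoq is at -0.09 and -0.04, and Lep is not drawn because its few counts spread from -0.70 to 0.67.

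The genes whose deviations within groups were most like those of each adipokine were ranked by Pearson's r over 10 libraries, among 9303 genes of mean log2 CPM of at least 3, as a description. Gramd4 (r = 0.993), Egln1 and Pfkl followed Rbp4, and Gprc5b (r = 0.990), B4galt1 and Mrtfb followed Retn. Htra3 (r = 0.977), Agpat2 and Ptgfrn followed Rarres2, and Ppm1h (r = 0.976), Slc39a13 and Clec4n followed Metrnl. These 4 adipokines share the high values of control 4 and KO 1, which enter every such correlation. Ndufaf3 (r = 0.987), Gtpbp3 and Romo1 followed Cfd, and 1810055G02Rik (r = 0.974), Csrp1 and Dnajc15 followed Adipoq. Ctsk (r = 0.968), Man2b2 and Thoc6 followed Lep. The likeness was lowest for Nrg4, with Tmod3 (r = 0.896), Cop1 and Bphl.

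Receptors and partners of the adipokines held 3 transcripts that fell in KO. Of 18 listed genes 12 were tested, with 0 higher and 3 lower past the limit, against 1.86% of all genes lower, and a median log2 fold change of -0.04. This list too was chosen with earlier results of these data known, so the contrast is a description. Cdh13 encodes T-cadherin, which binds circulating adiponectin. It measured 24.2, 24.1, 26.1, 25.0 and 24.9 CPM in controls 1 to 5 and 19.1, 14.5, 15.0, 13.8 and 14.6 in KO 1 to 5, so all KO libraries lay below all controls. Its log2 fold change was -0.69 (SE 0.0802, adjusted p = 0.000555). Kit, a receptor tyrosine kinase reported to bind meteorin-like, measured 8.13, 5.77, 7.24, 11.1 and 8.24 CPM in controls and 5.85, 3.47, 3.32, 2.84 and 3.51 in KO. KO 1 exceeded control 2 and the rest were apart, with a log2 fold change of -1.09 (SE 0.203, adjusted p = 0.0126). With the mean of the adipocyte markers as a covariate Kit was at -0.76 and missed the limit (adjusted p = 0.0885).

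Cmklr1, the signalling receptor of chemerin, measured 70.0, 64.6, 62.3, 60.3 and 62.9 CPM in controls and 55.2, 50.8, 60.5, 49.98 and 52.0 in KO. KO 3 exceeded control 4, and the log2 fold change was -0.25 (SE 0.0590, adjusted p = 0.0460). This Cmklr1 call was lost when any of controls 1, 2, 3 and 5 or KO 1, 2, 4 and 5 was left out, at adjusted p from 0.0723 to 0.154, and held without control 4 or KO 3. Of the 20 alternatives 8 kept it, and it was also lost with size factors in place of TMM (adjusted p = 0.0532) and with either marker covariate.

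The other receptors did not pass the test. Adipor1, which signals for adiponectin, was higher in every KO library than in any control, a mean of 187 against 175 CPM, but missed the limit (log2 fold change 0.09, adjusted p = 0.277). Adipor2 was at 0.07 (adjusted p = 0.492). C3, the complement protein whose alternative convertase needs adipsin, was lower in all KO libraries, 1955 against 1671 CPM (log2 fold change -0.23, adjusted p = 0.103, and 0.0242 by DESeq2), and its partner Cfb was at -0.69 (adjusted p = 0.449). The neuregulin receptor Erbb3 was at 0.21, Wnt5a at -0.08, and the resistin binders Cap1 and Tlr4 at -0.01 and 0.00. The chemerin-binding Ccrl2 was at 0.34, from only 64 counts in controls and 78 in KO. Of the genes too low to test, the leptin receptor Lepr drew 52 counts in controls and 17 in KO, and the chemerin receptor Gpr1 drew 44 and 10. Stra6l had 51 and 26 counts, the retinol receptor Stra6 had 22 and 19, Erbb4 had 2 and 1, and Ttr, the plasma partner of Rbp4, had 0. In the fit without a filter Gpr1 was at -2.01 (adjusted p = 0.0473) and Lepr at -1.53 (adjusted p = 0.156).

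Markers of vessel cells moved with these receptors. Of 15 endothelial markers, all detected and tested, 12 passed the limit, each lower in KO. Cdh5 (-1.27, adjusted p = 5.3e-05), Robo4 (-1.65), Egfl7 (-1.24) and Emcn (-1.29) led these. The log2 fold changes of all 15 markers were below 0, with a median of -1.24. Their summed level was 186 to 229 CPM in controls and 81.9 to 120.3 in KO. In bulk samples, fewer cells of a type and less RNA per cell cannot be told apart. With the mean of the endothelial markers as a covariate, Cdh13 was at 0.10 (adjusted p = 0.873), Kit at 0.74 (adjusted p = 0.629) and Cmklr1 at -0.11 (adjusted p = 0.877). Since that covariate separated the groups, it and the genotype cannot be told apart in this fit, which called 0 genes in either direction and 1115 higher and 813 lower at an unadjusted p under 0.05. Of 12 progenitor markers 5 passed the limit and were lower in KO, Lum (-0.78), Cd34 (-0.91), Pdgfra (-0.31), Col3a1 (-0.47) and Col1a1 (-0.38). Over the 12, 10 log2 fold changes were below 0 and 2 above. The sums were 5104 to 6593 CPM in controls and 4275 to 5073 in KO. Col3a1 missed the limit without control 5, KO 2 or KO 5, at adjusted p from 0.0547 to 0.0651. Col1a1, at an adjusted p of 0.0473, held only without control 2 or KO 1 and missed it without any other single library, at adjusted p from 0.0557 to 0.138.

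Of 12 adipocyte markers edgeR called 0, with 8 log2 fold changes above 0, 4 below and a median of 0.03. Lipe, hormone-sensitive lipase, was at 0.17 (adjusted p = 0.106) and Fabp4, the fatty acid binding protein of fat cells, at 0.12 (adjusted p = 0.387). DESeq2 called both higher, Lipe at an adjusted p of 0.0117 and Fabp4 at 0.0351. The sum of the 12 was 40769 to 41853 CPM in controls and 42886 to 44462 in KO, without overlap. Fabp4 weighs most in this sum, with a mean of 20805 CPM in controls and 22552 in KO. The part of the sum in the values of the adipokines was not tested. Another fit took as a covariate the mean log2 CPM of these markers, which weighs each alike and is not that sum. There Adipoq was at 0.03 and Cfd at 0.07, nearer 0 than without it. Rbp4 at 0.25, Rarres2 at 0.22, Metrnl at 0.21, Retn at 0.14 and Nrg4 at 0.16 were farther above 0, and Lep was at 0.15. Of 12 brown and beige markers edgeR called 1, with 8 log2 fold changes above 0, 4 below and a median of 0.07. Ucp1, the uncoupling protein, rose from 15.9 to 29.1 CPM (log2 fold change 0.87, SE 0.187, adjusted p = 0.0284). Ucp1 missed the limit without control 1, 2, 3 or 5 or KO 2, 4 or 5, at adjusted p from 0.0575 to 0.0856. DESeq2 also called Cidea (0.59, adjusted p = 0.00274) and Cox7a1 (0.16, adjusted p = 0.0133). Macrophage markers held 0 of 12 past the limit (sums of 1486 to 2292 and 1311 to 2175 CPM). Their log2 fold changes were above 0 for 5 and below 0 for 7, with a median of -0.02. The smallest p-values were those of Itgam (-0.23) and Mrc1 (-0.11). Mural cell markers held 0 of 9 past the limit, led by Abcc9 (-0.42) and Tagln (-0.49). The log2 fold changes of all 9 were below 0, with a median of -0.35. Their sums were 186 to 245 CPM in controls and 149 to 203 in KO. Of 10 mesothelial markers only Lrrn4 (-0.10) and Krt19 (-0.03) were tested, and 0 of these 2 passed. The rest drew too few counts to test.

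Genes that build or control adipokines held no call by edgeR. Of 11 proteins that fold, modify or release adiponectin, 0 passed the limit (median log2 fold change -0.05), with Colgalt1, a collagen galactosyltransferase, at -0.14 (adjusted p = 0.162) and Ero1a, an oxidase of the endoplasmic reticulum, at 0.23 (adjusted p = 0.345, and 0.0424 by limma voom). Of 12 transcription factors of adipokine genes, 0 passed (median 0.05). Pparg, the master regulator of fat cells and the target of rosiglitazone, was at 0.10 (adjusted p = 0.218) and Cebpd at 0.20 (adjusted p = 0.408). Of 31 other secreted factors of adipocytes, 0 passed (median -0.02), with the chemokine Cx3cl1 at -0.44 (adjusted p = 0.0596, and 0.0316 by DESeq2) and the lipid carrier Apoe at -0.31 (adjusted p = 0.157, and 0.0244 by limma voom).

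Neighbours of Adipoq on chromosome 16 held 2 transcripts that rose in KO. Eif4a2, an RNA helicase of translation whose near end lies at -32.4 kb from the Adipoq start, measured 239, 238, 234, 314 and 224 CPM in controls 1 to 5 and 459.9, 418, 388, 359 and 365 in KO 1 to 5. All KO libraries lay above all controls, and the log2 fold change was 0.67 (SE 0.0935, adjusted p = 0.00166). Rfc4, a subunit of the clamp loader of DNA replication whose near end lies at -18.8 kb, measured 4.93, 6.86, 6.30, 6.77 and 5.50 CPM in controls and 9.72, 9.57, 9.08, 10.3 and 8.96 in KO. It too was apart, at a log2 fold change of 0.65 (SE 0.0968, adjusted p = 0.00295). The annotated spans of Eif4a2 and Rfc4 overlap at their ends on opposite strands, and reads there cannot be told apart. Of 9 listed neighbours 7 were tested and 2 passed the limit, against 0.308% of all genes higher. The list was chosen with earlier results of these data known, so this contrast is a description and not an independent test.

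The other neighbours did not pass. Kng1, kininogen, was at 0.99 (95% interval 0.43 to 1.55, adjusted p = 0.0809) at a distance of -64.5 kb, and Kng2 at 0.50 (adjusted p = 0.111) at -117 kb. Fetub, farther off on the same side, was at 0.37 (adjusted p = 0.644). On the other side St6gal1 was at -0.04 (adjusted p = 0.975) and Masp1 at 0.27 (adjusted p = 0.716), while Hrg and Rtp1 had 0 counts. DESeq2 placed both Kng1 (adjusted p = 0.0123) and Kng2 (adjusted p = 0.0248) past the limit, as did limma voom. KO animals alone carried the Cre transgene with its sequence of the Adipoq locus, and its part in these values was not tested.

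**Figure D4:**
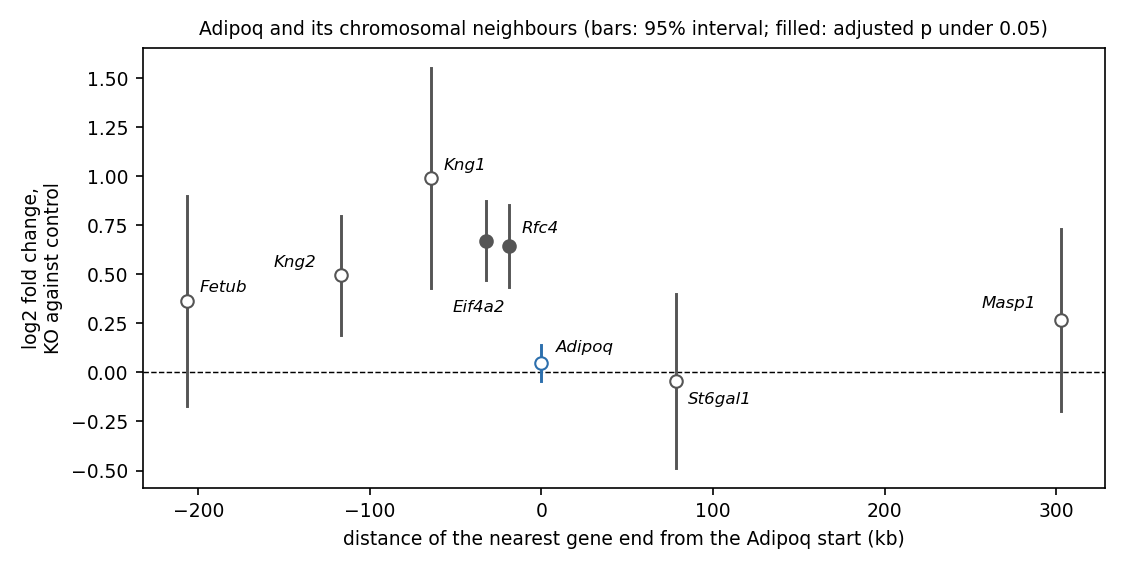
Log2 fold change of KO against control with its 95% interval, for Adipoq (blue) and the 7 neighbouring genes tested (grey), by distance in kilobases from the Adipoq start, with filled points where the adjusted p is under 0.05. Eif4a2 and Rfc4, at 0.67 and 0.65, are filled, and Adipoq lies at 0.05 next to them.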

How the data were processed

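RNA-seq was made from 5 control and 5 KO libraries of differentiated adipocytes. The authors aligned reads to GRCm38.p6 and deposited raw counts per gene, counted by featureCounts on an Ensembl annotation, with no normalization. The files were not pooled, and no column of another sample was present. Replicates were checked against each other, and no pair agreed within sampling noise (chi-square per degree of freedom at least 3.50).

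Counts were tested with edgeR (version 4.0.16, R 4.3.3) by its quasi-likelihood test after TMM scaling and filterByExpr with a minimum count of 10, with Benjamini-Hochberg adjustment and a limit of 0.05. DESeq2 (version 1.42.0), limma voom (limma 3.58.1), other scalings and filters, a replicate block, marker covariates and each library left out were alternatives. Leaving out control 4 and KO 1 together was chosen after seeing the data. Scripts were tested on simulated data. Log2 CPM used a prior count of 2, and exact permutation tests were 2-sided. The biological coefficient of variation was 9.35%. Intervals of fold changes include the spread between libraries, and the floors for a count of 0 cover counting error only.

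Exon lengths and positions came from GENCODE M21, which matched 52073 of the genes, and 174 genes tested had no length. Promoters came from RefSeq. Serine sites of the encoded proteins were not analysed here. The adipokines and the gene lists were chosen with earlier results of these data known. The genes named were all adipokines, Fam20c, all receptors, partners and Adipoq neighbours, from each other list the genes past the limit (up to the 4 with the smallest p, or the 2 smallest where none passed), and the 3 genes most like each adipokine. Col1a1, Cidea and Cox7a1 were named after their values were seen.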

Additional observations from a re-analysis of the deposited data

Results flagged for a closer look

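Within groups of 5 libraries, the highest or lowest was set against the gap to the nearest of the others, relative to the whole range (Dixon's ratio at its 95% critical value). Of 84 groups examined 7 stood above it, where chance gives about 1 in 20, or 4.20. No adipokine was among them. Cdh13 was 19.1 CPM in KO 1, against 13.8 to 15.0 in the other KO libraries. Kit was 5.85 CPM in KO 1, against 2.84 to 3.51. Eif4a2 was 314 CPM in control 4, against 224 to 239 in the other controls, and the sum of the Adipoq neighbours was 347 CPM there, against 250.4 to 262. With 1 library left out, the log2 fold change of Cdh13 ran from -0.78 to -0.65 and that of Kit from -1.29 to -0.95. That of Eif4a2 ran from 0.62 to 0.77. Each of these genes stayed past the limit in all 10 such fits. Erbb4 was 0.0750 CPM in control 2 and 0.0439 CPM in KO 2, from 2 counts and 1 count, and 0 in all other libraries. The sum of the mural markers was 149 CPM in KO 3, against 194 to 203 in the other KO libraries.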

How the results depend on the processing

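In all 20 alternatives 0 of the 8 adipokines tested passed the limit, and their lowest adjusted p was 0.125, for Cfd. The marker covariates moved several values. With the endothelial covariate Metrnl was at 1.17, Rbp4 at 1.11, Rarres2 at 0.84, Retn at 0.45, Lep at 1.72, Nrg4 at 0.082, Cfd at 0.067 and Adipoq at -0.076. With the adipocyte covariate Rbp4 was at 0.25, Rarres2 at 0.22, Metrnl at 0.21, Nrg4 at 0.16, Lep at 0.15, Retn at 0.14, Cfd at 0.071 and Adipoq at 0.034. Lep ran from -0.50 to -0.13 with 1 library left out. Rbp4 was at -0.022 without KO 1, and at -0.022 to 0.18 with 1 library left out. Metrnl was at -0.017 with total counts, -0.0046 with the replicate block and -0.042 without control 4 and KO 1, and at -0.11 to 0.076 with 1 library left out (-0.048 without control 1, -0.024 without control 2, -0.018 without control 5, -0.11 without KO 1 and -0.0019 without KO 4). The causes were not tested.

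Over all genes, 44 were higher and 265 lower. The higher count was 125 with DESeq2, 111 with limma voom, 21 with the replicate block, 145 without control 4 and KO 1, and 19 to 119 with 1 library left out, the highest of these without control 4 and the lowest without control 5. The lower count was 153 with the adipocyte covariate and 164 to 323 with 1 library left out, lowest without KO 2. With the endothelial covariate both were 0. Fam20c was at -0.53 (adjusted p = 0.0508) with the adipocyte and -0.65 (adjusted p = 0.492) with the endothelial covariate, and at -0.54 to -0.43 with 1 library left out, all 10 past the limit. Replicate numbers showed no clear pairing of the samples, which so few libraries cannot settle. Same-numbered libraries correlated at -0.17, 0.09, 0.26, -0.25 and 0.03, 1 of 5 with its own number best, and the block left 21 genes higher and 193 lower, with Cmklr1 at an adjusted p of 0.0636. Depth limits what can be said of Lep, Sfrp5, Itln1 and the receptors of under 1 CPM.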
